A study of Homo sapiens with 6 samples.

Results

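Binding of estrogen receptor α (ERα) was examined at 8 gene loci, MAPKAPK3, LHPP, DUOX2, ATP2B2, ANO1, CLIP2, RIBC2 and NOL12, each of which holds a region that had more ERα signal with estradiol (E2) in cells with wild-type ERα and with K303R, and no such call in cells with Y537S. The loci were chosen by those E2 ratios in the same libraries, so the raised regions are described below and not tested. A peak belonged to a locus when its summit lay inside the GRCh38 span of the gene or within 50 kb of it. By this rule 929 of 690548 listed peaks were members, and they merged into 216 of 175206 regions. Summit heights were compared at well-covered regions, those found in all 6 peak lists with a mean of at least 50 fragments at the summit. The 8 loci held 75 of the 33626 well-covered regions, 1 raised region per locus and 67 neighbours.

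The signal was measured by chromatin immunoprecipitation and sequencing (ChIP-seq) with the D8H8 antibody in MDA-MB-453, a human breast cancer cell line that expresses the androgen receptor and lacks ERα. The cells carried wild-type ERα, Y537S or K303R under a doxycycline-inducible promoter, and every group received 2 µg/mL doxycycline for 2 days in medium with 10% fetal bovine serum, without E2 or with 1 nM E2. The labels do not say whether the serum was hormone-stripped, whether a line was 1 clone, or how much receptor each line made. Each of the 6 groups is 1 library from 2 plates, so nothing below can be set against the spread between replicates, and each call compares 2 libraries rather than 2 conditions. The libraries listed 106186 to 125850 peaks. The names of the peaks carry 1 tag in the lists of wild type and K303R and another in those of Y537S, so in any comparison across that tag the receptor and the processing cannot be told apart.

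ERα is a nuclear receptor that binds DNA when estradiol occupies its ligand-binding domain, most strongly at estrogen response elements, palindromes of the core GGTCA, and often far from promoters. A tyrosine-to-serine substitution in that domain, Y537S, holds the receptor in its active shape without hormone and is found in endocrine-resistant breast cancer. K303R is a substitution in the hinge between the DNA-binding and ligand-binding domains. The question the design addresses is which sites each receptor occupies without hormone and what E2 adds.

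All 8 raised regions lay inside the span of their gene, and none overlapped a promoter window (250 bases before to 50 bases after a RefSeq start). Their distance from the nearest listed start of any gene ran from 2595 bp at NOL12 to 106542 bp at LHPP. Each was a single peak in each of the 6 lists, and its summit varied between lists by 19 bp at DUOX2 to 185 bp at ATP2B2. Exon, intron and UTR positions of the regions, and their sequences, were not analysed here because no exon annotation or genome sequence was used.

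The promoters of the same genes held little signal. Of the 8 members, 4 had a listed region on their own window (MAPKAPK3, RIBC2, CLIP2 and LHPP), with 10 to 26 summit fragments where it was listed, and none was well covered. The LHPP promoter region had 19 and 12 fragments in wild type without and with E2, 13 and 16 in Y537S, and 24 and 23 in K303R. The RIBC2 promoter region held 15 and 10 fragments in wild type, 12 and 11 in Y537S, and 20 and 15 in K303R. The receptor's core motif, GGTCA or its reverse complement TGACC, was found once on the windows of RIBC2, CLIP2 and LHPP and not on that of MAPKAPK3. The core on either strand occurs on 37.4% of the 34943 RefSeq promoter windows. The full estrogen response element, GGTCA followed after 3 bases of any kind by TGACC, holds the core by definition and occurs on 0.0572%. The forkhead motif TGTTTAC or GTAAACA occurs on 3.42%, and neither was on these 4 windows. The 30 bases around each core are shown 5′ to 3′ on the strand of the gene, which is the plus strand for all 3, from RefSeq on GRCh38.p14, with the core in capitals. They lie at chr22:45413495-45413524 for RIBC2, chr7:74289331-74289360 for CLIP2 and chr10:124461592-124461621 for LHPP.
RIBC2: ggaaggggccaaTGACCtggcggccccgcc
CLIP2: cccacgcgcgccTGACCcgcccccccctcc
LHPP: tcaatttgccttTGACCtttcttagggact
The core began 186 bases before the gene's start at RIBC2, 64 before it at CLIP2 and 219 before it at LHPP. The 250 bases before the start of LHPP, at chr10:124461573-124461822 on the plus strand, are shown because its promoter region was listed in all 6 libraries and lay farther from its raised region than at the other 3 genes, at 135663 bp from the gene's start.
LHPP promoter: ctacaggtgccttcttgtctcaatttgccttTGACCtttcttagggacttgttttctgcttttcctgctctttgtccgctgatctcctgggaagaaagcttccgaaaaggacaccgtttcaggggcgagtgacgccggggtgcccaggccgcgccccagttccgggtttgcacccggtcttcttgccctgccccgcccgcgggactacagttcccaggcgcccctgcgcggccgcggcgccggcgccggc
A match to these letters describes the window and is not a measured binding site.

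Summit fragments at the raised regions were low in wild type and K303R without E2 and around the library median or above it in Y537S. With E2 they were still below that median at 8 of 8 regions in wild type and 5 of 8 in K303R. In Y537S they were 0.768 to 1.80 times that median without E2 and 0.786 to 1.57 times with it, with 3 of 8 below it in each. A ratio below is the number of fragments at the summit in one library over another, centred on the ratio of the library medians over well-covered regions (100 and 102 fragments in wild type without and with E2, 99 and 112 in Y537S, 73 and 90 in K303R). A region is called when its ratio passes 1.5-fold and its exact counting interval at an error rate of 0.001 excludes 1. The intervals printed are 95% exact binomial intervals and cover counting error only. The E2 ratio ran from 2.54 to 5.88 in wild type (median 3.18) and from 2.40 to 3.63 in K303R (median 2.95), and all 8 regions were called in both, where the share called higher over all well-covered regions was 1.55% and 2.05%. In Y537S it ran from 0.874 to 1.49 (median 0.966) with 0 of 8 called higher, against 0.0862% of all regions. These counts restate how the loci were chosen. Over the whole genome, 125 well-covered regions (0.372%) were called higher with E2 in wild type and K303R and not in Y537S. Without the Y537S condition the count was the same 125, so that condition removed none. The missing call in Y537S is thus not particular to the 8 loci. Ordered by the geometric mean of their wild-type and K303R ratios, NOL12 was number 1 of the 125, MAPKAPK3 2, LHPP 3, ATP2B2 4, RIBC2 6, CLIP2 11, DUOX2 13 and ANO1 21.

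**Figure D1:**
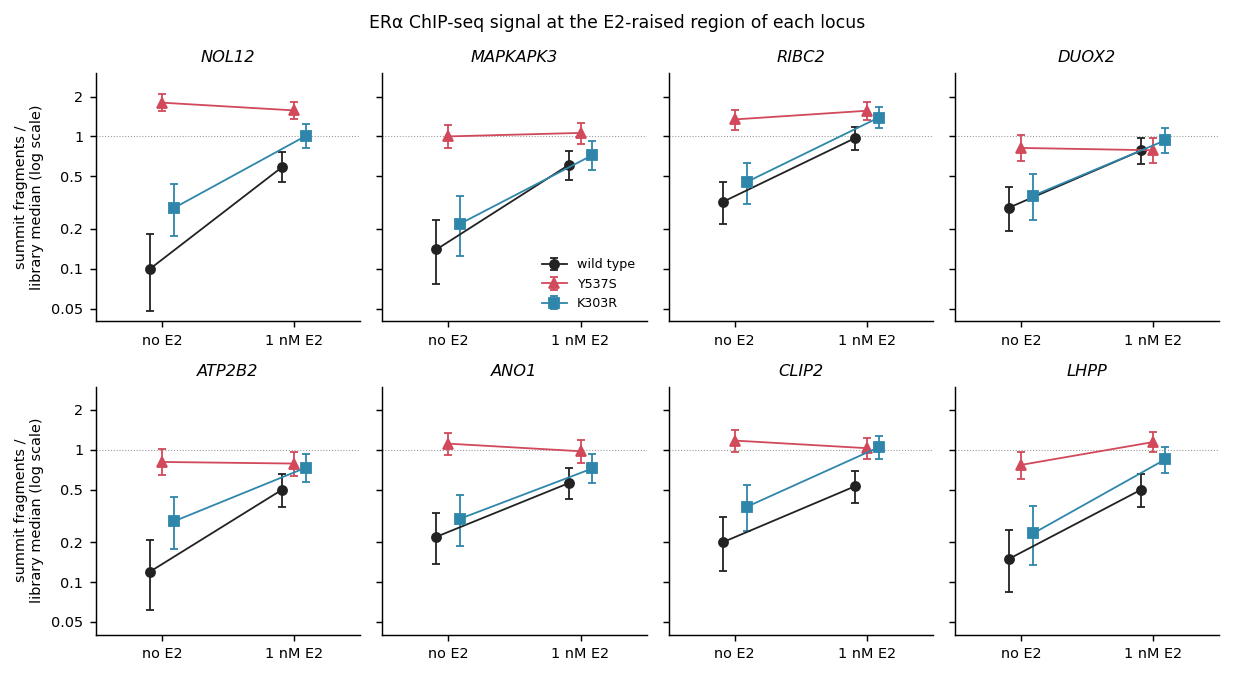
Summit fragments divided by the library median (log axis) at the raised region of each of the 8 loci, without and with 1 nM E2, for wild type (circles), Y537S (triangles) and K303R (squares), 1 library per point with 95% Poisson counting intervals. Wild type and K303R lie below their library median (dotted line) at all 8 loci without E2, while Y537S stays between 0.768 and 1.80 times its median.

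Among the signalling and metabolic enzymes, MAPKAPK3 encodes a kinase that acts below the stress-activated p38 kinases. Its raised region (chr3:50647558-50648257) lay 1422 bp inside the 3′ end of the gene. It had 14 and 62 fragments in wild type without and with E2, 99 and 119 in Y537S, and 16 and 65 in K303R. Set over the library median, wild type and K303R were at 0.14 and 0.219 without E2 and still under it, at 0.608 and 0.722, with E2. Both Y537S libraries had more fragments than all the others. The E2 ratio was 4.34 (2.40 to 8.40) in wild type, 3.30 (1.88 to 6.10) in K303R and 1.06 (0.807 to 1.40) in Y537S. In the deposited list of wild type without E2 the region ranked 87997 of 125850 peaks by −log10 p. Of the 7 well-covered neighbours, 0 were called with E2 in any receptor, and their wild-type ratios ran from 0.922 to 1.56. The nearest, 7655 bp away, had 58 and 65 fragments in wild type, a ratio of 1.10 (0.759 to 1.59). The strongest neighbour lay 1256 bp from CISH, an inhibitor of cytokine signalling (chr3:50604909-50606236). It held 253 and 238 fragments in wild type, 132 and 178 in Y537S, and 273 and 278 in K303R, so its lowest values were in Y537S, where those of the raised region were highest.

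LHPP encodes a phosphatase that removes phosphate from histidine residues. Its raised region (chr10:124597197-124597966) had 15 and 51 fragments in wild type without and with E2, 76 and 128 in Y537S, and 17 and 76 in K303R. It was the member at which Y537S came nearest to a change, with a ratio of 1.49 (1.11 to 2.00) that is under the 1.5-fold needed and whose 95% interval lies above 1. The ratio was 3.33 (1.84 to 6.38) in wild type and 3.63 (2.12 to 6.55) in K303R. LHPP also had the most neighbours of the same kind. Of its 12, 3 were called higher with E2 in wild type, 3 in K303R, and 2 in both. The region at chr10:124571961-124572424 had 46 and 100 fragments in wild type (2.13, 1.49 to 3.09), 19 and 67 in K303R (2.86, 1.70 to 5.04), and 109 and 112 in Y537S (0.908, 0.691 to 1.19). At chr10:124575004-124575554 the counts were 40 and 84 in wild type (2.06, 1.40 to 3.08), 29 and 81 in K303R (2.27, 1.47 to 3.59), and 122 and 132 in Y537S (0.956, 0.742 to 1.23). All 3 regions thus lay within 25264 bp of each other inside the gene. The region at chr10:124557628-124558225 was called in wild type alone (105 and 198 fragments, 1.85, 1.45 to 2.37), with a K303R ratio of 1.34 (1.04 to 1.73). The region at chr10:124555724-124556415 was called in K303R alone (32 and 82 fragments, 2.08, 1.37 to 3.23), with a wild-type ratio of 1.17 (0.778 to 1.77). On the other side, the strongest neighbour, 6697 bp from the raised summit, held 157 and 185 fragments in wild type, 182 and 200 in Y537S, and 139 and 225 in K303R. The 7 regions in the adjoining gene FAM53B were not called with E2 in any receptor.

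DUOX2 encodes a dual oxidase that makes hydrogen peroxide, best known from thyroid hormone synthesis and mucosal epithelia. Its raised region (chr15:45101937-45102365) had 29 and 80 fragments in wild type without and with E2, 81 and 88 in Y537S, and 26 and 84 in K303R. The 4 libraries other than the low pair without E2 were thus within 80 to 88 fragments of each other before centring. The E2 ratio was 2.70 (1.75 to 4.29) in wild type, 2.62 (1.67 to 4.24) in K303R and 0.960 (0.702 to 1.32) in Y537S. The whole locus leaned the same way. All 6 neighbours had ratios over 1 in wild type (1.29 to 2.31) and in K303R (1.26 to 2.29), and their summed fragments gave centred ratios of 1.62 in both, against 1.11 in Y537S. The neighbour 3632 bp outside the gene (chr15:45088711-45089316) was called in both, with 67 and 158 fragments in wild type (2.31, 1.73 to 3.12), 29 and 82 in K303R (2.29, 1.49 to 3.63), and 127 and 152 in Y537S (1.06, 0.830 to 1.35). The strongest neighbour (chr15:45108167-45108776) was called in K303R, with 106 and 207 fragments (1.58, 1.25 to 2.02). In wild type it had 184 and 274 (1.46, 1.21 to 1.77). The region in DUOX1, the paralog next door, was not called, with wild-type counts of 37 and 66 and K303R counts of 49 and 76.

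Among the ion transport genes, ATP2B2 encodes a plasma membrane calcium pump that exports calcium into milk in the lactating mammary gland. Its raised region (chr3:10463457-10464011) lay deep in a gene of 384094 bp. It had 12 and 51 fragments in wild type without and with E2, 80 and 88 in Y537S, and 21 and 66 in K303R. It was the weakest entry of the 8 in wild type without E2, at rank 124620 of 125850 by deposited −log10 p. The E2 ratio was 4.17 (2.19 to 8.59) in wild type, 2.55 (1.54 to 4.39) in K303R and 0.972 (0.710 to 1.33) in Y537S. Of 10 neighbours, 9 had wild-type ratios over 1 and all 10 had K303R ratios over 1, and 1 was called. That region (chr3:10335241-10336074), 128148 bp away, had 55 and 110 fragments in wild type (1.96, 1.41 to 2.76). In K303R it had 47 and 87 (1.5, 1.04 to 2.19), and in Y537S 78 and 107 (1.21, 0.897 to 1.64). The strongest neighbour (chr3:10482268-10482949) held 133 and 186 fragments in wild type, 144 and 174 in Y537S, and 121 and 196 in K303R.

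ANO1 encodes a calcium-activated chloride channel and lies in a segment of chromosome 11 that is amplified in some breast cancers. Its raised region (chr11:70137387-70137893) had 22 and 57 fragments in wild type without and with E2, 110 and 109 in Y537S, and 22 and 65 in K303R. Both Y537S libraries were above all 4 others. The E2 ratio was 2.54 (1.53 to 4.36) in wild type, 2.40 (1.46 to 4.08) in K303R and 0.876 (0.666 to 1.15) in Y537S, the smallest raised ratios of the 8 in wild type and in K303R. ANO1 had the most neighbours, 19, and they were the most mixed. At chr11:70088441-70088952 wild type had 65 and 124 fragments (1.87, 1.37 to 2.57) and K303R had 67 and 137 (1.66, 1.23 to 2.26), and both were called, while Y537S had 134 and 153 (1.01, 0.795 to 1.28). This locus also held the lower calls. The region at chr11:70012886-70013544 had 101 and 71 fragments in K303R (0.570, 0.415 to 0.780), a call, and 145 and 96 in wild type (0.649, 0.496 to 0.846), which passed the fold minimum but not the counting interval of a call. Beyond FADD, which encodes an adaptor of death receptors, the region at chr11:70233254-70234097 (26251 bp from that gene) was called lower in wild type (190 and 123 fragments, 0.635, 0.502 to 0.800). In K303R its ratio was 0.843 (0.682 to 1.04). The strongest neighbour of any locus lay here (chr11:70105936-70106916), with 401 and 360 fragments in wild type, 324 and 350 in Y537S, and 382 and 412 in K303R.

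Among the microtubule genes, CLIP2 encodes a linker protein that binds growing microtubule ends. Its raised region (chr7:74376631-74377395) had 20 and 54 fragments in wild type without and with E2, 116 and 115 in Y537S, and 27 and 94 in K303R. The E2 ratio was 2.65 (1.56 to 4.67) in wild type, 2.82 (1.82 to 4.51) in K303R and 0.876 (0.671 to 1.14) in Y537S. The 4 neighbours were all at least 46250 bp away and none was called with E2. They had wild-type ratios of 0.888 to 1.28 and K303R ratios of 0.878 to 1.54, the highest in each being the region 9592 bp from RFC2, a subunit of the clamp loader of DNA replication. CLIP2 was the only locus of the 8 with a neighbour called higher in Y537S than in wild type both without and with E2. That region (chr7:74302711-74303463) held 118 and 109 fragments in Y537S against 53 and 48 for wild type.

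RIBC2 encodes a protein of the microtubule doublets of cilia. Its raised region (chr22:45429835-45430674) had 32 and 99 fragments in wild type without and with E2, 133 and 175 in Y537S, and 33 and 125 in K303R. The E2 ratio was 3.03 (2.02 to 4.67) in wild type, 3.07 (2.08 to 4.66) in K303R and 1.16 (0.923 to 1.47) in Y537S. The only well-covered neighbour was 1251 bp away (chr22:45428573-45429104) and changed with it in wild type, with 80 and 165 fragments (2.02, 1.54 to 2.68), a call. In K303R it had 88 and 149 (1.37, 1.05 to 1.81), and in Y537S 141 and 159 (0.997, 0.790 to 1.26). The raised region and its neighbour make up all well-covered signal of the locus, and the raised region's share of their fragments went from 28.6% to 37.5% with E2 in wild type and from 27.3% to 45.6% in K303R. In Y537S the share was 48.5% and 52.4%.

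NOL12 encodes a nucleolar RNA-binding protein that takes part in ribosomal RNA processing. Its raised region (chr22:37688513-37689311) lay 2595 bp from the start of a gene of 7132 bp and was the only region of the locus inside the gene. It had 10 and 60 fragments in wild type without and with E2, 178 and 176 in Y537S, and 21 and 91 in K303R. The wild-type ratio of 5.88 (2.99 to 12.9) rests on the 10 fragments, the fewest at any raised region, and the K303R ratio was 3.51 (2.17 to 5.95). In Y537S the ratio was 0.874 (0.706 to 1.08). None of the 8 neighbours was called with E2 in any receptor, and their wild-type ratios ran from 0.814 to 1.13. The nearest lay in LGALS1, the gene of a galectin, at 12792 bp, with 125 and 136 fragments in wild type, 123 and 159 in Y537S, and 156 and 201 in K303R. The strongest lay in TRIOBP, an actin-binding protein gene (chr22:37736867-37737378), with 264 and 290 fragments in wild type, 275 and 322 in Y537S, and 227 and 253 in K303R. In wild type the raised region held 0.924% of the well-covered fragments of the locus without E2 and 4.96% with it, while the summed neighbours had a centred ratio of 1.05.

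**Figure D2:**
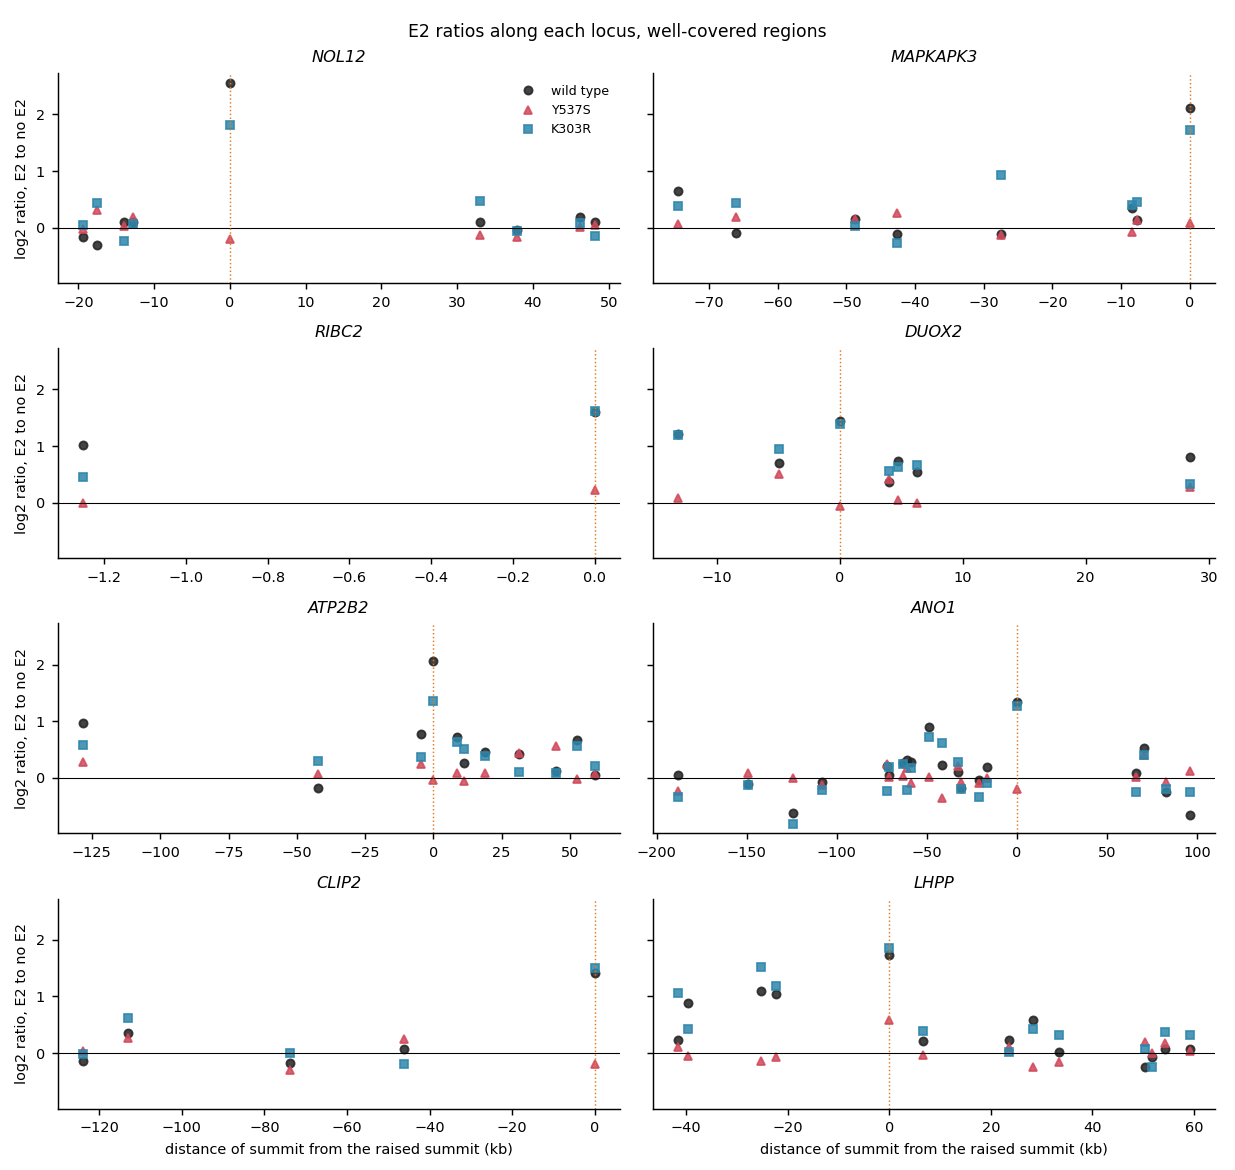
Log2 E2 ratio of every well-covered region against the distance of its summit from the raised summit (kb, genome orientation), 1 panel per locus, for wild type (circles), Y537S (triangles) and K303R (squares). NOL12, MAPKAPK3 and CLIP2 show a single raised position among neighbours of which none was called with E2, while at LHPP and DUOX2 further regions lie above 1 on the log2 scale in wild type and K303R.

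Over the 67 neighbours, E2 calls were more frequent than over all well-covered regions in wild type and K303R. In wild type 7 were called higher and 1 lower, or 10.4% and 1.49%, where 1.55% and 0.684% of all regions were called. In K303R 6 were called higher and 1 lower, where the background was 2.05% and 1.05%. In Y537S 0 of 67 were called either way, against 0.0862% higher and 0.0833% lower over all regions. Scaled by the lowest local background of each library instead of the library median, the counts were 13 higher and 0 lower in wild type (background 2.69% and 0.235%) and 28 and 0 in K303R (14% and 0.0387%). The regions called higher in both wild type and K303R numbered 4 of 67, against a background of 0.372%: 1 at DUOX2, 1 at ANO1 and 2 at LHPP. The median log2 ratio of the neighbours was 0.15 in wild type, 0.30 in K303R and 0.04 in Y537S, where that of all well-covered regions was -0.01, -0.03 and -0.01. Neighbours of one locus share a stretch of chromosome and are not independent, and the loci were picked for a raised region, so these counts are a description. Just short of both calls were the DUOX2 region at chr15:45096814-45097465 (ratios 1.63 in wild type and 1.94 in K303R), the ATP2B2 region at chr3:10472158-10472737 (1.65 and 1.56) and the DUOX2 region at chr15:45106761-45107107 (1.67 and 1.56). Each passed 1.5-fold in both receptors and was held back by the width of its counting interval. At the edge of the window, the last ATP2B2 region inside lay 49189 bp from the gene and the first outside 50854 bp, with means of 4.17 and 6.50 fragments over the 6 libraries.

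**Figure D3:**
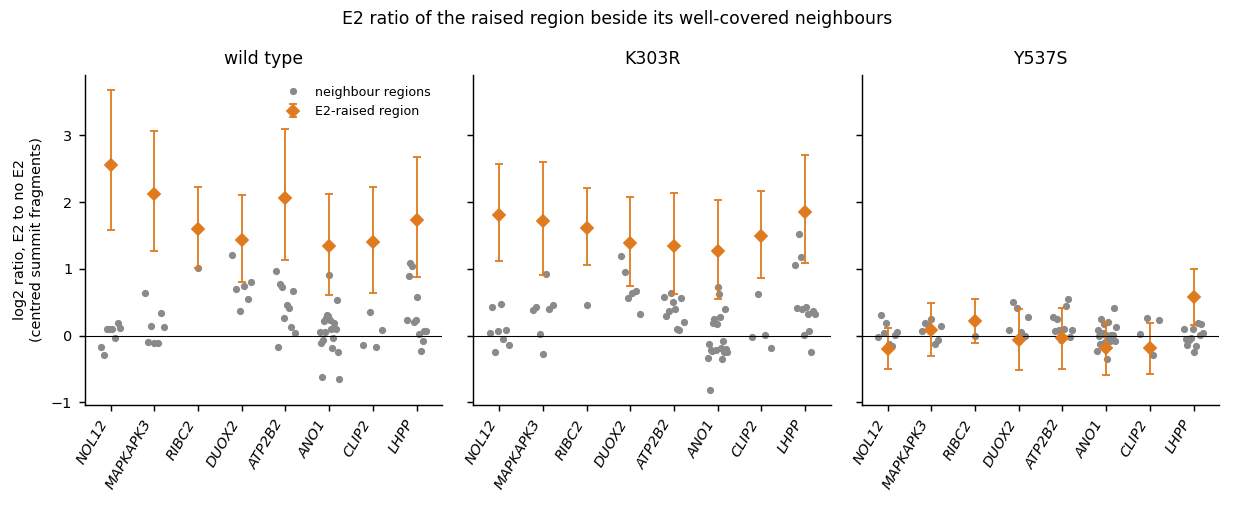
Log2 E2 ratio of the raised region (diamonds, 95% counting intervals) and of its well-covered neighbours (grey points) at each locus, in wild type, K303R and Y537S. The raised region lies above all its neighbours at each locus in wild type and K303R because it was chosen so, while in Y537S it lies above them at RIBC2 and LHPP, below them at NOL12 and DUOX2, and among them at the other 4.

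Membership in the lists was counted over all regions, well covered or not. Of the 216 merged regions, 10 (4.63%) were in both E2 lists of wild type and K303R and in neither list without E2, where 1.55% of all merged regions were. The reverse, in both lists without E2 and in neither with it, held for 4 (1.85%, against 1.69%). All 10 lay inside the member genes, 3 at LHPP and 2 each at MAPKAPK3, ATP2B2 and ANO1, with the last at RIBC2, and 7 of the 10 were in both Y537S lists, as were 1339 of the 2723 such regions of the whole series. In the E2 libraries of wild type and K303R they had 11 to 38 fragments. The strongest in wild type was inside ANO1 (chr11:70086800-70087129), with 38 and 30 fragments in the E2 libraries of wild type and K303R, and with 49 and 32 in Y537S without and with E2. A region of MAPKAPK3 (chr3:50615396-50615826) held 37 and 32 fragments in those E2 libraries, and 42 and 52 in Y537S. An absent peak is one below the authors' threshold and not a count of 0. These regions were picked by list membership and were not tested.

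The distance of the raised region from its neighbours was also taken per locus. In wild type and K303R it is above 0 because the region was chosen for its ratios there. Subtracting the median log2 ratio of the neighbours left 2.46 at NOL12 in wild type, 1.98 at MAPKAPK3, 1.62 at ATP2B2, 1.52 at LHPP, 1.43 at CLIP2, 1.25 at ANO1, 0.71 at DUOX2 and 0.58 at RIBC2. The RIBC2 value rests on 1 neighbour, and the NOL12 value on 10 fragments in wild type without E2. No intervals were computed for the offsets, so differences between loci are not established. In K303R the offsets ran from 0.74 at DUOX2 to 1.76 at NOL12. In Y537S they ran from -0.33 at CLIP2 to 0.59 at LHPP, and 6 of 8 were below 0.

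Y537S without E2 had more fragments than wild type without E2 at all 8 raised regions. The ratio was 18.0 (9.55 to 38.1) at NOL12, 7.14 at MAPKAPK3, 6.73 at ATP2B2, 5.86 at CLIP2, 5.12 at LHPP, 5.05 at ANO1, 4.20 at RIBC2 and 2.82 (1.83 to 4.47) at DUOX2. All 8 were called, where 8.05% of all regions were called higher and 9.14% lower. This ratio uses the same wild-type library without E2 that the choice of loci required to be low, so it is not separate evidence. With E2 the ratio of Y537S to wild type ran from 1.00 at DUOX2 to 2.67 at NOL12, and 6 of 8 were called, against a background of 6.06% higher and 8.59% lower. The called regions were those of NOL12, LHPP, CLIP2, MAPKAPK3, ANO1 and RIBC2. All of them but RIBC2 passed the coverage minimum only with the Y537S libraries in the mean. That minimum favours a high ratio at such regions, so their calls cannot be weighed against the background share. How much of the ratio comes from the minimum was not tested. By the deposited folds the ratio of Y537S to wild type with E2 ran from 1.00 at NOL12 to 1.26 at RIBC2, and was under 1.5 at all 8. Set against wild type with E2, Y537S without E2 was again at or above it at each region by summit fragments. The ratio ran from 1.04 (0.756 to 1.44) at DUOX2 to 3.06 (2.27 to 4.17) at NOL12. Of these regions, 3 were called (NOL12, CLIP2 at 2.21 and ANO1 at 1.99), where 5.59% of all regions were called higher and 7.84% lower. Those 3 also passed the coverage minimum only with the Y537S libraries in the mean. Their uncentred deposited folds in Y537S without E2 were 17.8 at NOL12, 23.1 at CLIP2 and 19.9 at ANO1. In wild type with E2 they were 16.4, 19.0 and 19.2. The fold was lower in Y537S at LHPP (13.2 against 16.0) and MAPKAPK3 (19.7 against 19.9), and higher at RIBC2, DUOX2 and ATP2B2. All ratios of Y537S to wild type given here cross the peak-name tag.

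**Figure D4:**
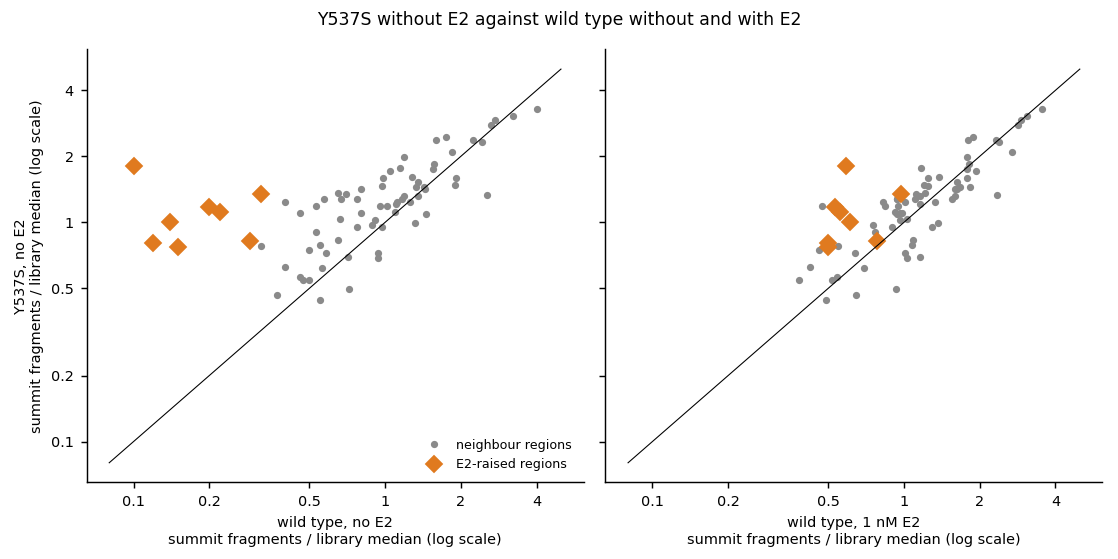
Summit fragments over the library median (log axes) in Y537S without E2 against wild type without E2 (left) and with E2 (right), for the 8 raised regions (diamonds) and their 67 neighbours (grey points), with the line of equality. The raised regions lie far above the line on the left, at 2.82 to 18.0-fold, and at 1.04 to 3.06-fold on the right.

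The minimum of 50 fragments favours regions that are high in Y537S. Taken over the 4 wild-type and K303R libraries alone, the mean reached 50 at 2 of the 8 raised regions, RIBC2 (72.3) and DUOX2 (54.8), and was 37.5 to 48.8 at the other 6. Those 6 passed the minimum only with the Y537S libraries in the mean.

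The neighbours were also compared between Y537S and wild type. Without E2, of the 67, 14 were called higher and 1 lower, where 8.05% and 9.14% of all regions were, with 5 of the 14 at LHPP and 3 at ATP2B2. With E2 1 was called higher, the CLIP2 region given above (2.07, 1.46 to 2.97), and 0 lower, where the background was 6.06% and 8.59%. Scaled by the lowest local background, 13 were called higher and 0 lower with E2, against 11.8% and 4.55% of all regions. Of the 9 neighbours called higher with E2 in wild type, in K303R or in both, 6 were among these 14. Y537S stood over wild type without E2 by 3.08 (2.14 to 4.52) at LHPP chr10:124575004-124575554, by 2.39 (1.68 to 3.46) at LHPP chr10:124571961-124572424 and by 1.64 (1.27 to 2.11) at LHPP chr10:124557628-124558225. The values were 2.08 (1.54 to 2.85) at the called ANO1 region, 1.91 (1.41 to 2.61) at the DUOX2 region outside the gene and 1.78 (1.34 to 2.37) at the RIBC2 neighbour. With E2 the ratios at these 6 regions were 1.43, 1.02, 0.856, 1.12, 0.876 and 0.878, and none was called. This ratio and the wild-type E2 ratio share the wild-type library without E2, so the values are only set side by side.

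K303R had ratios over 1 to wild type at 8 of 8 raised regions, both without and with E2. Over all well-covered regions 53.9% were over 1 without E2 and 54.3% with it, and of the 67 neighbours 71.6% and 76.1%. At the raised regions the count was 7 of 8 without E2 when scaled by the lowest local background. By the deposited folds it was 7 of 8 in either treatment. The ratio of K303R to wild type without E2 ran from 1.23 at DUOX2 to 2.88 (1.30 to 6.84) at NOL12, with 0 of 8 called, against a background of 5.48% higher and 5.86% lower. With E2 it ran from 1.19 at MAPKAPK3 to 1.97 (1.40 to 2.81) at CLIP2, the 1 region of the 8 that was called, against 6.33% higher and 7.89% lower. By the deposited folds the CLIP2 ratio was 1.09. The wide intervals at low counts do not show that the receptors act alike. These ratios at the raised regions use the same wild-type and K303R libraries whose E2 ratios chose the loci. They are therefore not separate evidence, and their calls cannot be weighed against the background share. Among the neighbours, K303R was called higher than wild type at 8 and lower at 1 in the absence of E2, and at 9 and 2 in its presence. Scaled by the lowest local background, the counts were 1 and 8 without E2 (background 0.642% and 22.7%) and 5 and 2 with E2 (3.53% and 11.5%), so the direction without E2 depends on the scaling. That scaling shifts the log2 ratio of K303R to wild type by -0.44 without E2 and that of E2 in K303R by 0.39, of E2 in wild type by 0.10 and of E2 in Y537S by 0.00.

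The local background around the raised regions was also set side by side without and with E2. The background fragments recovered from the lists were higher with E2 at 8 of 8 regions in wild type, 8 of 8 in K303R and 7 of 8 in Y537S. They were not centred, and the library medians were also higher with E2 in each receptor. The share over all regions was not counted. The raised regions were chosen for more signal with E2 in wild type and K303R, so these counts are a description. At MAPKAPK3 they went from 1.21 to 2.17 in wild type and from 1.31 to 2.41 in K303R, and were 4.07 and 4.45 in Y537S. The 1.21 is the lowest background anywhere in the list of wild type without E2. Without E2, 5 of the 8 raised regions sat at the lowest background of their list in wild type, 1 in K303R and 0 in Y537S. The authors' deposited fold sets the summit against this background, with a pseudocount. Its E2 ratios were smaller than those of the fragments at all 8 regions in wild type, at 1.25 (RIBC2) to 3.13 (NOL12), and in K303R, at 1.35 (CLIP2) to 2.32 (MAPKAPK3). In K303R the ratios of the deposited folds at DUOX2, ATP2B2 (1.42) and CLIP2 were under 1.5, as was that at RIBC2 in wild type. In Y537S the deposited folds gave 0.817 to 1.27, smaller than the fragment ratio at 4 regions and larger at 4. For Y537S against wild type without E2 it gave 1.49 to 3.37. The listed peak was wider with E2 at 8 of 8 regions in wild type, 8 of 8 in K303R and 6 of 8 in Y537S, and here too the share over all regions was not counted. At MAPKAPK3 its width was 319 and 603 bp in wild type, 429 and 510 bp in K303R, and 700 and 643 bp in Y537S. What part the local background has in the E2 ratios was not tested.

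Outside the 8 loci, the regions whose profile over the 6 libraries was most like the mean profile of the raised regions lay near PRR36, C20orf203, SH3PXD2A, TRAF3 and CCDC171. Likeness was the Euclidean distance between log2 fragments over the library median, centred on each region's own mean. It was 0.36 for PRR36, 0.39 for C20orf203, 0.53 for SH3PXD2A, 0.55 for TRAF3 and 0.59 for CCDC171, where the members themselves were at 0.37 to 1.25 and the median of all well-covered regions was 2.53. The PRR36 region (chr19:7874670-7875371, 725 bp outside the gene) had 14 and 47 fragments in wild type without and with E2, 77 and 104 in Y537S, and 22 and 63 in K303R. The region nearest TRAF3, an adaptor of the tumour necrosis factor receptor family (chr14:102914717-102915651, 3785 bp outside the gene), held 36 and 79 fragments in wild type, 182 and 200 in Y537S, and 38 and 112 in K303R. NOL12 and DUOX2, at 1.25 and 0.99, were the members least like the mean profile, NOL12 with the widest range between libraries and DUOX2 with the narrowest.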

How the data were processed

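ERα ChIP-seq peak lists of 6 libraries, 1 per group, were used. Per the submitters' processing notes, the build was hg38 and the tools included MACS2, Bowtie2, bedtools, Picard and SAMtools. Their versions, the control library, the thresholds and the total depth are not stated in the labels or headers. Each deposited list gives, per peak, the authors' fold enrichment (a ratio to local background), a −log10 p, a −log10 q, a score, which was not used, and a summit offset. All are the authors' own values, and no replicates were pooled per the labels.

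From the deposited fold and −log10 p, the whole number of fragments at the summit and the local background were solved, with a Poisson p and a pseudocount of 1 in the fold. The deposited p was matched within 0.01% for 99.9% to 100.0% of peaks per library. The recovery and the calls were tested on simulated data. Peaks on chromosomes 1 to 22 and X were merged by at least 1 bp of overlap. Where 1 region held several peaks of a list, the highest summit was used. Well-covered regions, centring, the call rule, and the 95% Clopper-Pearson intervals are defined with the results. A region with few fragments gives a wide interval, and PCR copies may make the intervals too narrow.

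Gene spans and promoter windows came from RefSeq (GRCh38.p14), in which all 8 members were matched. The raised region of a locus was the one with the largest geometric mean of the wild-type and K303R E2 ratios among those called higher in both. The regions named are the raised regions, the strongest and nearest well-covered neighbours, neighbours called in any E2 comparison, and the 5 most alike regions outside the loci. Neighbours named for a call of Y537S against wild type, for lying just short of a call, or for their gene were chosen after their values were seen. The members, the comparison lists and the tests were chosen with earlier results of these data known. Alternatives were other scalings, a centring within 5 Mb of the locus, other coverage minimums, call rules, windows, rules for joining peaks, the deposited folds, and a coverage minimum over the wild-type and K303R libraries, the last chosen after seeing the data. Python 3.11.15, NumPy 2.4.6, SciPy 1.17.1 and pandas 2.3.3 were used.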

Additional observations from a re-analysis of the deposited data

How the results depend on the processing

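No paired analysis was possible because each group has 1 library and the labels give no replicate numbers to block on. No called value of a raised region turned its direction under the alternatives run, while the balance of higher and lower calls of K303R against wild type without E2 did. The count of raised regions with the pattern was 8 of 8 under the alternatives for which it was counted, which leave out the deposited folds, except for a coverage minimum of 100 fragments (0, because none is that well covered), the minimum over the wild-type and K303R libraries (2) and centring within 5 Mb of the locus (7). Over all alternatives, 129 summary values stayed close to those reported and 39 moved, as did 259 and 21 values of single regions. Scaled by the lowest local background, the neighbours called with E2 numbered 13 higher and 0 lower in wild type and 28 and 0 in K303R, where 14% of all regions were then called higher. Y537S against wild type with E2 then gave 13 higher, where 11.8% of all regions were higher and 4.55% lower, and K303R against wild type 1 higher and 8 lower without E2 and 5 higher with E2. Centred within 5 Mb, lower calls were 2 for E2 in wild type, 2 for Y537S against wild type with E2 and 2 for K303R against wild type without E2. A minimum of 20 fragments gave 3 higher for Y537S against wild type with E2. A minimum of 100 gave 4 higher for E2 in wild type, 3 for E2 in K303R and 0 for Y537S against wild type with E2. Without a fold minimum, 1 neighbour was lower in Y537S than in wild type with E2. A 2-fold minimum gave 4 higher and 0 lower for E2 in wild type, 0 lower for E2 in K303R, 6 higher and 0 lower for Y537S against wild type without E2, and for K303R against wild type 3 and 0 without and 2 and 0 with E2. A 95% interval gave 14 and 2 for E2 in wild type, 13 higher for E2 in K303R, 5 higher for Y537S against wild type with E2, and 14 and 7 for K303R against wild type without E2. A window of 25 kb gave 0 lower for E2 in wild type. A window of 100 kb gave 3 lower for Y537S against wild type without E2, and 2 higher and 1 lower with E2. Joining summits gave 2 lower for E2 in wild type. Among the 50000 strongest peaks of each list, 504 were members. Apart from the scaling by the lowest local background, the share called over all regions was not recomputed under these alternatives. Another call rule, coverage minimum, centring or joining can change that share as well. These counts alone thus do not show how the neighbours stand against it. Beyond what the minimums and the call rules fix by construction, the cause of these moves was not tested. Few fragments limit the wild-type and K303R values without E2 most.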

Other observations

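Regions at genes related to the members by family or function were counted in the same way, with none listed for NOL12. The list held 23 genes, among them the calcium pump genes ATP2B1, ATP2B3 and ATP2B4, the anoctamin genes, and the kinase genes MAPKAPK2 and MAPKAPK5, and 18 of them had well-covered regions outside the 8 loci, 91 in all. With E2 in wild type 2 (2.20%) were called higher and 0 lower, where 1.55% and 0.684% of all regions were. In K303R 3 (3.30%) were higher and 3 lower, where 2.05% and 1.05% were, and in Y537S 0 and 0. The 1 region of the 91 called higher in both wild type and K303R, against 0.372% of all regions, lay inside MLST8, a subunit gene of the mTOR complexes, within 50 kb of PGP (chr16:2208776-2209289). It had 107 and 185 fragments in wild type (1.70, 1.33 to 2.17), 89 and 203 in K303R (1.85, 1.44 to 2.40), and 215 and 249 in Y537S (1.02, 0.850 to 1.23).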
